A study of Bos taurus with 52 samples.

Results

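Endometrium, the lining of the uterus, was compared between pregnant and non-pregnant heifers of 1 fertility class, the high-fertile class (HF). The comparison took all 5 libraries of the pregnant group (P-HF) and all 5 of the non-pregnant group (NP-HF), 10 of the 52 RNA-seq libraries of a study of bovine endometrium and conceptuses from heifers classed as high-fertile, subfertile (SF) or infertile. The 10 libraries came from 10 different heifers, so that no animal gave both a pregnant and a non-pregnant sample. P-HF endometrium was taken on day 17 of pregnancy. For NP-HF the sources used here give no day, and pregnancy and a possible difference in cycle day cannot be told apart. The labels name no treatment in either group, endometrial RNA was extracted with a lysis reagent, and libraries were made with a stranded mRNA kit. The other 15 endometrium libraries were NP-SF, P-SF and non-pregnant infertile, 5 each. They entered the filter on low counts, the scaling of libraries and the estimate of the spread. Apart from a comparison with SF heifers given near the end, their levels were not compared.

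Total counts were 17077635 to 27292222 reads per library, with 23085 to 24233 genes detected, and the top 10 genes by count held 3.06% to 4.54% of each library. Of the genes in the deposited table, 19606 passed a filter on low counts. Levels are given as CPM, a count divided by its TMM-scaled library total and set to a common depth, changes are log2 fold changes of P-HF over NP-HF with their standard error after ±, and a gene was called when its adjusted p in edgeR's quasi-likelihood test was under 0.05. On the first principal component of the 10 libraries, from the most variable genes (45.3% of the variance) NP-HF libraries lay between -34 and -15.9 and P-HF replicates 2 to 5 between 30.6 and 34.9. P-HF replicate 1 lay between them, at 10.2.

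In ruminants the embryo signals its presence before it attaches: the elongating trophoblast secretes interferon tau, which acts on the endometrium, keeps the corpus luteum from being broken down and induces interferon-stimulated genes. The pulses of prostaglandin that would end the cycle depend on the oxytocin receptor in the luminal epithelium, which is kept low in pregnancy. The endometrium itself is layered, with luminal and glandular epithelium over a stroma of fibroblasts, vessels and immune cells, and its secretions feed the conceptus until a placenta forms.

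In total 4081 genes were called (20.8% of those tested), 1997 higher (10.2%) and 2084 lower (10.6%) in P-HF. Counts of called list members below are to be read beside these shares. Rises were larger than falls at the extreme: 102 called genes were at a log2 fold change of 3 or more and 20 at -3 or less. Most changes were small, with 1397 of the higher and 1404 of the lower genes under 2-fold (600, or 3.06% of tested genes, rose and 680, or 3.47%, fell by more) and medians of 0.61 and -0.74. All 5 P-HF libraries lay above all 5 NP-HF libraries for 1203 genes (6.14%) and below them for 1165 (5.94%). Scaling by library totals alone moved the median of all genes from -0.01 to -0.12 and turned the split into 1328 higher and 3299 lower, so that small changes are read here relative to the median gene. The labels give separate animals for each library, so the spread between libraries is that between heifers.

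**Figure D1:**
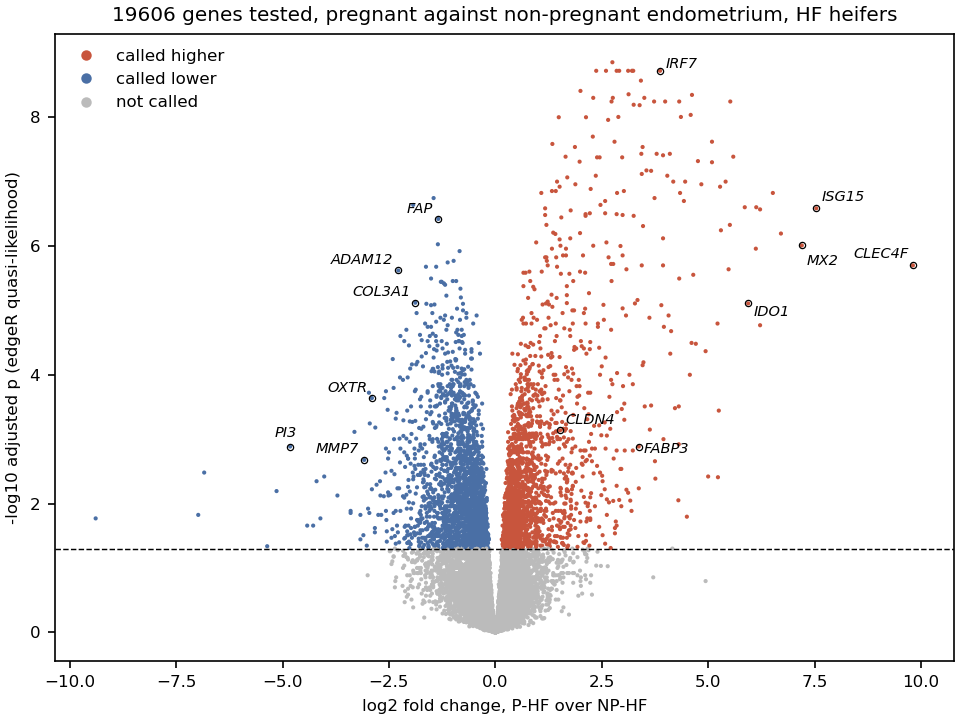
Log2 fold change of P-HF over NP-HF (x axis) against -log10 of the adjusted p in edgeR's quasi-likelihood test (y axis) for 19606 genes, 1 point per gene, with the 0.05 threshold as a dashed line. The 102 called genes at a log2 fold change of 3 or more reach to CLEC4F at 9.81, while the 20 at -3 or less include PI3 at -4.82.

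Genes that interferon induces were higher in P-HF. Of 44 tested antiviral effectors 42 rose and none fell, with a median log2 fold change of 3.41 against -0.01 over all genes, and in 41 of them the 2 groups of libraries did not overlap. These genes together took 0.147% to 0.23% of the scaled reads in NP-HF libraries and 1.36% to 2.96% in P-HF libraries. The 2 members that were not called were OASL (0.63 ± 0.56) and SAMHD1 (-0.21 ± 0.14), which limits the nucleotides available to viruses.

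ISG15, a ubiquitin-like protein that is attached to other proteins, had 4.04, 7.02, 3.89, 7.76 and 4.63 CPM in NP-HF replicates 1 to 5 and 432.3, 1118, 1212, 924.2 and 1378 CPM in P-HF replicates 1 to 5. It rose by 7.54 ± 0.78 (adjusted p = 2.6e-07 in edgeR). The machinery that attaches it and takes it off rose with it: 7 of 8 members of the conjugation list were higher and none lower, with a median of 3.53. UBA7, the activating enzyme, rose by 4.62 ± 0.36, HERC6 by 3.94 ± 0.36, HERC5, a ligase, by 3.13 ± 0.24, and USP18, the protease that removes ISG15, by 4.59 ± 0.38. USP18 was at 67.6 CPM in P-HF replicate 1 and at 129.7 to 159.1 CPM in the other P-HF libraries, all above the 3.31 to 7.52 CPM of NP-HF.

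MX2, a GTPase that blocks viruses, was at 3.79, 8.29, 4.05, 17.8 and 4.81 CPM in NP-HF and at 452.2, 1292, 1413, 985.1 and 1536 CPM in P-HF. Its log2 fold change was 7.20 ± 0.81. The closely related MX1 had 74.0 to 182.1 CPM in NP-HF and 2027 to 4277 CPM in P-HF. After MX2, the largest rises in this list included RSAD2 (6.71 ± 0.73), which makes a chain-terminating nucleotide, the RNA-binding proteins IFIT2 (6.13 ± 0.63), IFIT1 (6.12 ± 0.69) and IFIT3 (5.52 ± 0.44), and OAS2 (5.86 ± 0.60), a synthetase that starts RNA decay. OAS1Z (5.09 ± 0.44) belongs to a family of close copies, so that its reads may be shared with OAS1X and OAS1Y. Among the largest rises of the genes that met the naming rule given below was also KIF5C (5.41 ± 0.52), a neuronal kinesin motor. It had 1.36 to 5.00 CPM in NP-HF and 46.8, 166.2, 155.9, 131.2 and 168.9 CPM in P-HF.

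Of 27 interferon receptor, STAT and IRF genes 15 rose, 2 fell and 10 were not called, with a median of 0.86. IFNAR1 and IFNAR2, the receptor chains for type I interferons, were among those not called, at -0.11 ± 0.12 and -0.09 ± 0.12. The kinases JAK1 (-0.22 ± 0.06) and TYK2 (-0.24 ± 0.06), named after their values were seen, were the 2 members of this list that fell.

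IRF7, a transcription factor that amplifies interferon genes, had 19.1, 24.1, 23.1, 22.3 and 22.2 CPM in NP-HF and 178.4, 304.3, 396.5, 397.4 and 347.2 CPM in P-HF. The NP-HF libraries lay close together and all P-HF libraries were well above them, with a change of 3.87 ± 0.26 and an adjusted p of 1.9e-09 in edgeR. IRF9, a DNA-binding subunit of the factor that type I interferons activate, rose by 3.21 ± 0.23, BATF2 by 3.46 ± 0.31 and IRF3, which is activated by RNA sensors, by 1.34 ± 0.12. Of 22 RNA and DNA sensors 12 rose and none fell, with a median of 0.62. DDX58 (RIG-I), a sensor of viral RNA, had 31.4 to 59.0 CPM in NP-HF and 535.1 to 1175 CPM in P-HF and rose by 4.32 ± 0.34. ZBP1, a sensor of nucleic acids in the Z form, rose by 5.30 ± 0.57 and IFIH1 (MDA5) by 3.42 ± 0.25. The count of lower sensors became 1 without NP-HF replicate 1, P-HF replicate 3 or P-HF replicate 5, and 2 without NP-HF replicate 5 or by library totals.

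The largest fold change among the named genes belonged to CLEC4F, a C-type lectin. NP-HF libraries held 4 of its reads in all, every one of them in replicate 4, and P-HF libraries held 4204. In CPM the NP-HF values were 0, 0, 0, 0.19 and 0 and the P-HF values 5.58, 43.2, 30.4, 32.2 and 74.3. The fitted change was 9.81 ± 1.16. Its size depends on how zero counts are treated and ranged from 9.39 to 12.98 over the alternatives.

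**Figure D2:**
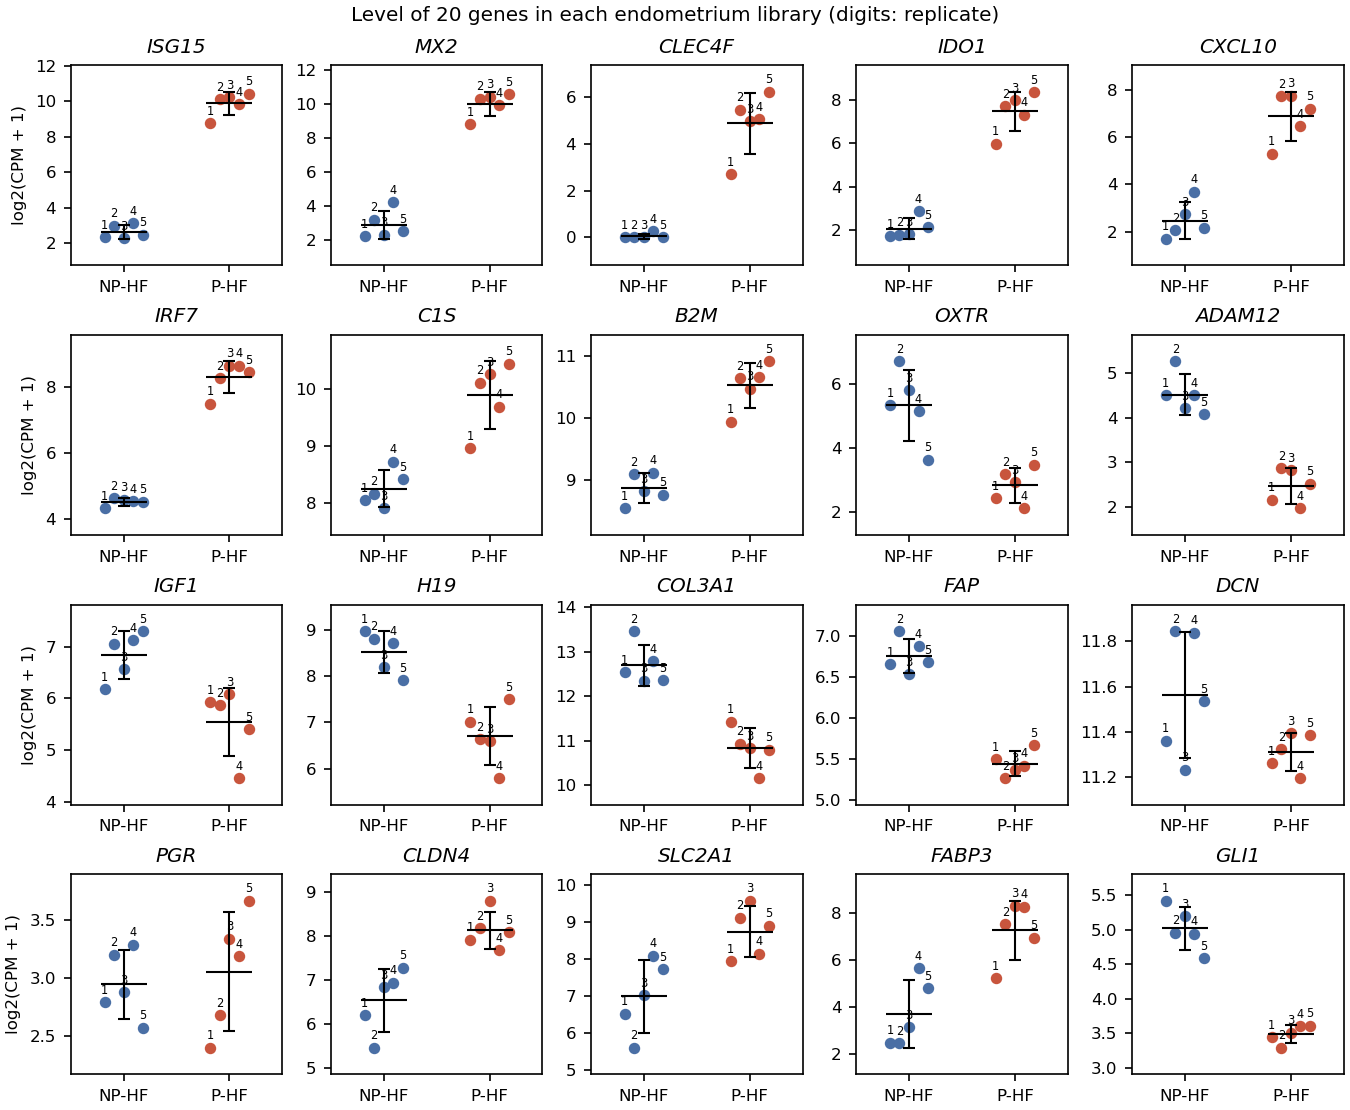
Level of 20 genes in each library as log2(CPM + 1), with NP-HF in blue, P-HF in red, digits for the replicate, and the mean and SD of each group in black. Interferon genes such as ISG15 and IRF7 separate the groups without overlap and P-HF replicate 1 is the lowest P-HF library for ISG15, MX2, CLEC4F, IDO1, CXCL10, IRF7, C1S and B2M, whereas DCN and PGR overlap between the groups.

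P-HF replicate 1 was the lowest P-HF library in 39 of the 42 antiviral effectors that rose, and NP-HF replicate 4 the highest NP-HF library in 24 of them. Across all 19606 genes these 2 libraries held those places for 24.7% and 22.8% of genes. The mean log2(CPM + 1) of the antiviral list was 7.37 in P-HF replicate 1, 8.11 to 8.48 in the other P-HF libraries and 4.29 to 5.07 in NP-HF. Without both libraries 4032 genes were called, an alternative chosen after seeing the data.

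Of 20 class I and antigen-processing genes 13 rose and none fell (median 0.83). B2M, which forms the small subunit of class I complexes, was at 372, 545, 453, 557 and 434 CPM in NP-HF and at 984, 1606, 1428, 1619 and 1938 CPM in P-HF. That is a change of 1.68 ± 0.21 with no overlap between groups. TAP1, a subunit of the transporter that loads peptides in the endoplasmic reticulum, rose by 2.06 ± 0.24, and PSME2 and PSMB8, proteasome subunits, by 1.08 ± 0.11 and 1.32 ± 0.20. BOLA and BOLA-NC1 (1.24 ± 0.27), cattle class I genes, rose, were picked after their values were seen, and have close copies that may share reads. Of 14 class II genes 3 rose (median 0.42): BOLA-DMB (1.26 ± 0.26), which helps load peptides, CTSS (0.88 ± 0.15), a protease that trims the invariant chain, and CD74 (0.61 ± 0.18), the invariant chain itself. The share of class II genes called was 21.4%, against 20.8% of all genes. Without NP-HF replicate 4 the class II count was 5, and without P-HF replicate 5 CD74 was no longer called.

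Of 30 chemokine genes and receptors 9 rose, 1 fell and 20 were not called. CXCL10, which attracts activated T cells, had 2.27, 3.20, 5.67, 11.9 and 3.50 CPM in NP-HF and 38.3, 209, 214, 86.3 and 145 CPM in P-HF, a change of 4.71 ± 0.69. CCL8 (4.34 ± 0.43), CXCL9 (3.66 ± 0.65) and CCL2 (1.97 ± 0.34) also rose. CCL28, a mucosal chemokine named after its value was seen, was the 1 that fell (-1.68 ± 0.44), and without P-HF replicate 1 the list had 2 lower members.

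IDO1, which breaks down tryptophan and thereby holds back T cells, was at 2.27, 2.40, 2.48, 6.19 and 3.36 CPM in NP-HF and 62.9, 210, 257, 160 and 331 CPM in P-HF. With a log2 fold change of 5.94 ± 0.77 it was the largest rise of the checkpoint and tolerance list, followed by CD274 (PD-L1), a ligand that switches T cells off, at 3.94 ± 0.47. PDCD1 (1.07 ± 0.21), the receptor of that ligand, and CD86 (0.92 ± 0.24), a costimulatory ligand, rose too. Of 17 members 7 rose. LGALS1 (-0.55 ± 0.16), a galectin, and CD276 (-0.44 ± 0.12) fell, and neither was called without NP-HF replicate 2. The count of lower members was 1 without P-HF replicate 4.

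Complement genes rose in 11 of 25 cases, with a median of 1.12. C1S, a protease of the first complement component, had 265, 286, 239, 423 and 342 CPM in NP-HF and 499, 1101, 1222, 825 and 1389 CPM in P-HF. It rose with no overlap between groups, and C1R, its partner protease, rose by 1.62 ± 0.26. C2, the next protease of the cascade, rose by 3.46 ± 0.54, with 15.1 CPM in P-HF replicate 1 and 46.2 to 60.3 CPM in the other P-HF libraries. The recognition subunits C1QB and C1QC, made largely by macrophages, rose by 2.03 ± 0.30 and 2.08 ± 0.31. CD93 (-1.33 ± 0.28), a receptor of endothelial and myeloid cells named after its value was seen, was the 1 lower member, and without P-HF replicate 1 or P-HF replicate 3 there were 2.

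Of 14 macrophage and dendritic markers 7 rose and none fell (median 0.63). Their summed level was 160 to 240 CPM in NP-HF and 222 to 357 CPM in P-HF, ranges that overlap. FCGR1A, an Fc receptor, rose by 1.90 ± 0.28, FCER1G by 1.08 ± 0.22, AIF1 by 0.92 ± 0.18 and CD68, a lysosomal protein of macrophages, by 0.69 ± 0.12. In whole tissue a change in the number of cells of a type and a change in RNA per cell cannot be told apart, and the part of macrophages in the complement and class II results was not tested. Among 21 T and NK cell markers the median was 0.04 (-0.06 by library totals), with 1 higher and 2 lower. That is 14.3% called, against 20.8% of all genes. CD3E, a chain of the T cell receptor complex, was at 0.16 ± 0.28. CD8A, the coreceptor of cytotoxic T cells, was at 4.08, 6.595, 5.34, 7.19 and 5.14 CPM in NP-HF and 2.88, 2.51, 5.29, 3.18 and 3.39 CPM in P-HF. The single P-HF library inside the NP-HF range was replicate 3. CD8A was called at -0.71 ± 0.24 but lost the call without NP-HF replicates 2, 3 or 4 or P-HF replicates 1, 2, 4 or 5. PRF1, perforin, was called higher (0.80 ± 0.27) and lost the call without NP-HF replicates 1, 2, 3 or 5 or P-HF replicates 3, 4 or 5. The lower count fell to 0 without NP-HF replicates 2, 3 or 4 or P-HF replicates 1, 2 or 5, and to 1 without NP-HF replicate 1 or P-HF replicate 4. NP-HF replicate 4 had the highest score of these T and NK markers, and without it, or without P-HF replicate 2, 2 members were higher.

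Among 11 mast cell and granulocyte markers S100A12, a calcium-binding protein of neutrophils and macrophages, rose by 2.75 ± 0.45, and the mast cell tryptase TPSB2 fell by 1.25 ± 0.30. TPSB2 had 4.54, 7.25, 8.77, 6.52 and 10.6 CPM in NP-HF and 2.54, 3.14, 3.59, 3.44 and 3.12 CPM in P-HF, with no overlap. The second of the 2 lower members was FCER1A, a chain of the IgE receptor named after its value was seen (-1.18 ± 0.39), and the count was 1 without NP-HF replicate 3 or P-HF replicates 2, 3 or 4, and 3 at the highest with 1 library left out. Without NP-HF replicate 4 there were 2 higher members. Of 11 B and plasma cell markers only XBP1, a transcription factor of secretory cells, was called (0.36 ± 0.08), and IGJ, the joining chain of secreted antibodies, was at 0.01 ± 0.93.

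Several genes of the conceptus had almost no reads in either group. IFN-TAU had 1 read in NP-HF and 1 in P-HF, PAG2 had 1 and 0, PAG11 0 and 2, and TKDP1 0 and 3, the last 3 being secreted products of the bovine trophoblast. IFNT2 had 58 to 66 reads per library in NP-HF and 46 to 78 in P-HF. PAG1 had 35 to 45 and 20 to 83, so that the reads assigned to these 2 genes were present in heifers with no conceptus. None of the 7 tested trophoblast markers rose. ELF5 (-2.68 ± 0.77) and TFAP2C (-0.67 ± 0.24), transcription factors that are also expressed in other epithelia and named after their values were seen, fell. That count was 1 without NP-HF replicates 2 to 5 or P-HF replicates 1, 2, 4 or 5.

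**Figure D3:**
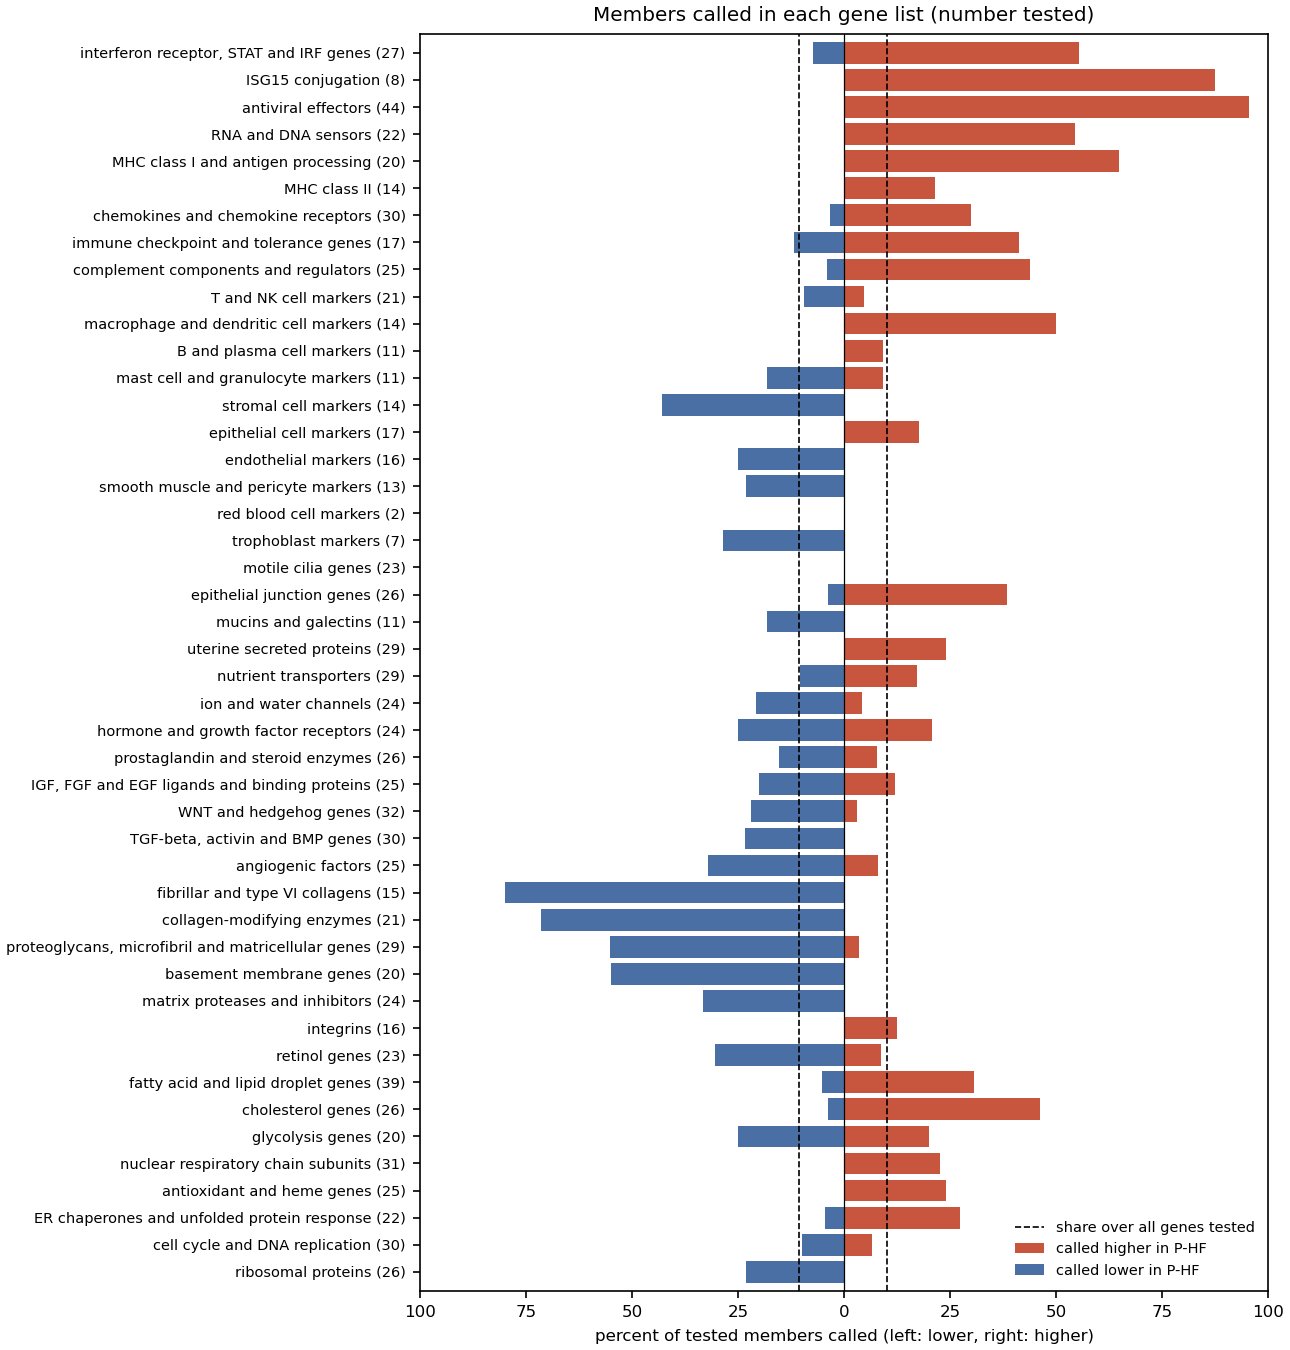
Percent of the tested members of 46 gene lists that were called higher (red, to the right) or lower (blue, to the left) in P-HF, with the number tested in parentheses and the shares over all genes (10.2% and 10.6%) as dashed lines. Antiviral effectors (42 of 44 higher) and fibrillar and type VI collagens (12 of 15 lower) stand at the 2 ends, and no motile cilia gene was called.

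Collagens and the genes that process them were the other large block, and they fell. Of 15 fibrillar and type VI collagens 12 fell and none rose, with a median of -1.03, and for 9 of them every P-HF library was below every NP-HF library. COL3A1, a main fibrillar collagen of soft tissue, was at 5931, 11315, 5227, 7039 and 5256 CPM in NP-HF and at 2753, 1953, 1813, 1142 and 1774 CPM in P-HF. NP-HF replicate 2 was the highest library, P-HF replicate 4 the lowest, and the groups did not overlap. The fall was 1.88 ± 0.24 on the log2 scale, and it ranged from 1.64 to 2.06 over the alternatives.

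**Figure D4:**
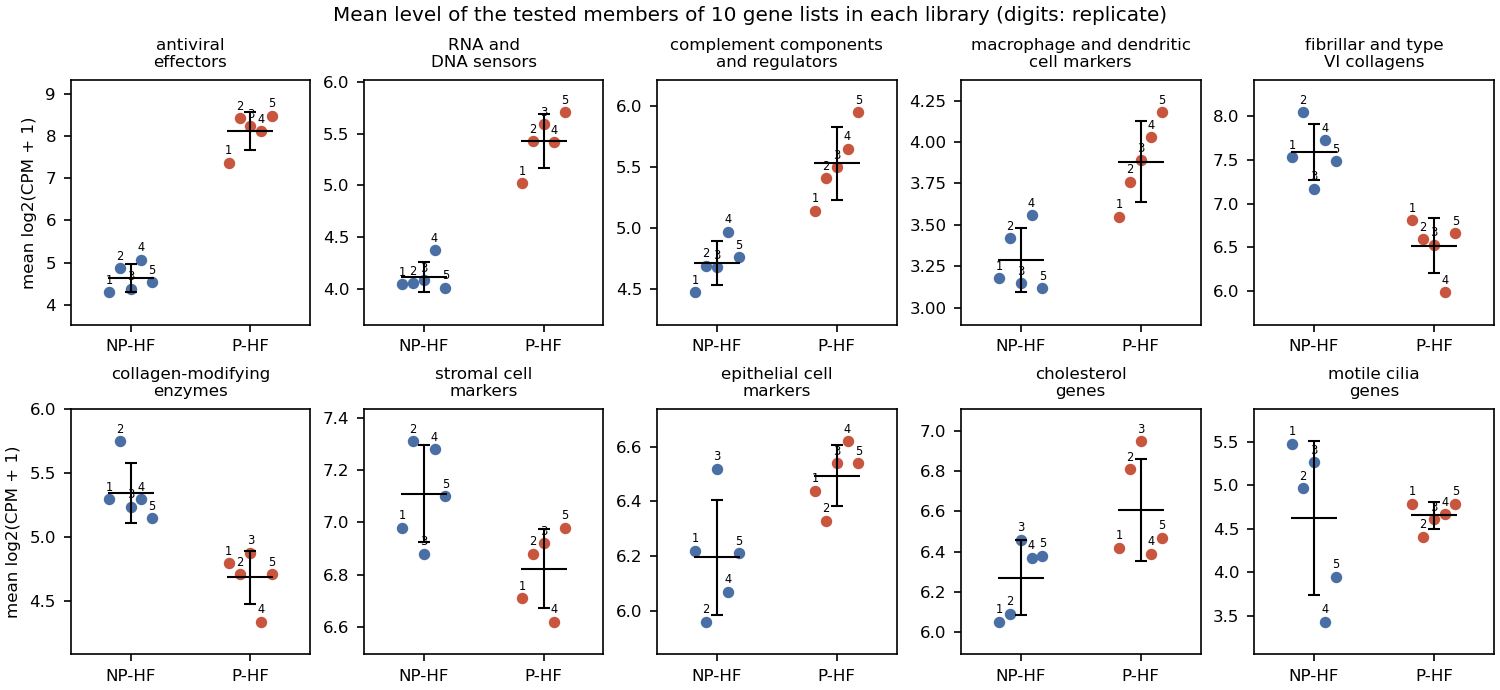
Mean log2(CPM + 1) of the tested members of 10 gene lists in each library, with NP-HF in blue, P-HF in red, digits for the replicate, and the mean and SD of each group in black. Antiviral scores of NP-HF (4.29 to 5.07) and P-HF (7.37 to 8.48) and collagen scores of NP-HF (7.17 to 8.05) and P-HF (5.98 to 6.81) do not overlap, while motile cilia scores of P-HF (4.41 to 4.79) lie within the NP-HF range (3.43 to 5.48).

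COL1A1, a chain of type I collagen, was at 1530.0, 2853, 1434, 1571 and 1187 CPM in NP-HF and at 714.8, 506.0, 604.7, 286.5 and 667.4 CPM in P-HF, a change of -1.63 ± 0.24. COL1A2, its partner chain, changed by -1.55 ± 0.23, COL5A3 by -1.85 ± 0.25, COL6A1 by -1.03 ± 0.19 and COL16A1 by -0.99 ± 0.16. COL6A5 (0.47 ± 0.55), COL6A6 (-0.58 ± 0.74) and COL11A1 (-1.03 ± 0.39) were the 3 members not called. With each library left out in turn the count was 12 or 13. The collagen list as a whole took 1.2% to 2.55% of the reads in NP-HF and 0.333% to 0.708% in P-HF.

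The enzymes that modify and cross-link collagen fell as well, in 15 of 21 cases with none higher (median -0.71). FKBP10, a collagen chaperone, had 24.9, 40.5, 29.7, 33.8 and 24.0 CPM in NP-HF and 11.73, 13.6, 14.1, 8.06 and 12.6 CPM in P-HF, and fell by 1.35 ± 0.15. CRTAP, part of a prolyl 3-hydroxylase complex, fell by 1.51 ± 0.20, and its level in P-HF replicate 1 (21.1 CPM) was above that of the other P-HF libraries (10.0 to 12.5 CPM). ADAMTS2 (-1.59 ± 0.27) and BMP1 (-0.87 ± 0.14), which cut the ends off procollagens, and PLOD1 (-0.54 ± 0.10), a lysyl hydroxylase, fell too. The count was 13 to 15 with 1 library left out.

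Of 29 proteoglycan, microfibril and matricellular genes 16 fell, with a median of -0.78. VCAN, the large proteoglycan versican, fell by 1.16 ± 0.24, SPON1 by 1.24 ± 0.21, and the microfibril genes MFAP2 and FBN2 by 0.87 ± 0.17 and 1.31 ± 0.22. CTGF, a matricellular growth factor named after its value was seen, was the 1 member that rose, by 1.22 ± 0.27. P-HF replicate 4 had the lowest score in this list. Of 20 basement membrane genes 11 fell and none rose (median -0.47). NID1, a linker of basement membranes, was at 79.9, 106.3, 65.4, 113.0 and 109.2 CPM in NP-HF and 65.6, 33.8, 36.1, 18.2 and 45.2 CPM in P-HF. P-HF replicate 1 reached the lowest NP-HF library, and the change was -1.25 ± 0.27. LAMB1 (-0.83 ± 0.14) and LAMA4 (-0.89 ± 0.14), laminin chains, and COL4A2 (-0.86 ± 0.19) fell too. The proteoglycan count was 11 to 18 and the basement membrane count 8 to 11 with 1 library left out. Without NP-HF replicate 4 or P-HF replicate 1, 1 basement membrane gene was higher.

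Of 24 matrix proteases and inhibitors 8 fell and none rose. ADAM12, a membrane metalloprotease, had 21.6, 37.5, 17.5, 21.7 and 15.9 CPM in NP-HF and 3.50, 6.28, 6.08, 2.92 and 4.75 CPM in P-HF. All P-HF libraries were far below all NP-HF libraries, and the fall was 2.28 ± 0.27. MMP2, a gelatinase, fell by 1.08 ± 0.23, and ADAMTS9 by 1.24 ± 0.29. MMP7 (matrilysin) had 4.33, 65.3, 6.204, 8.67 and 3.97 CPM in NP-HF and 1.13, 2.20, 3.28, 2.61 and 1.17 CPM in P-HF. Its change of -3.08 ± 0.67 rested in part on NP-HF replicate 2, and without that library it was -1.47 and still called. Without NP-HF replicate 5 the list had 1 higher member, and without P-HF replicate 1 it had 2. Of 16 integrins, the cell-surface receptors for matrix, ITGB5 (0.94 ± 0.27) and ITGB6 (0.99 ± 0.31) rose, 12.5% called against 20.8% of all genes. Neither was called without P-HF replicate 3, and ITGB6 was also not called without NP-HF replicate 1 or 2. Without NP-HF replicate 3 1 integrin was lower, by library totals 3 were, and their median was 0.01, or -0.10 by library totals.

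Of 14 markers of stromal cells that are not collagens 6 fell and none rose (median -0.39), and their summed level was 4269 to 6306 CPM in NP-HF and 3845 to 4818 CPM in P-HF, which overlap. FAP, a protease of activated fibroblasts, was at 99.5, 132.3, 91.7, 116.0 and 101.2 CPM in NP-HF and 44.0, 37.4, 39.98, 41.6 and 49.8 CPM in P-HF. It fell by 1.34 ± 0.14 with no overlap, and THY1 (-0.69 ± 0.18) and PDGFRB (-0.50 ± 0.12), fibroblast surface proteins, fell by less. DCN (decorin), a small proteoglycan, was at 2628, 3682, 2403, 3663 and 2966 CPM in NP-HF and 2451, 2560.0, 2687, 2342 and 2674 CPM in P-HF. The groups overlapped, the change was -0.27 ± 0.14, and DCN was called only when library totals were used for scaling (-0.38, adjusted p = 0.034 in edgeR). LUM (lumican) was at -0.19 ± 0.14, PDGFRA, a receptor of stromal fibroblasts, at 0.41 ± 0.20 and HAND2, a transcription factor of uterine stroma, at 0.03 ± 0.18. The lower count was 3 without NP-HF replicate 2, P-HF replicate 1 or P-HF replicate 4. Without NP-HF replicate 4 or 5, 1 stromal marker was higher.

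Within each library the ratio of COL3A1 to DCN in CPM was 2.26, 3.07, 2.18, 1.92 and 1.77 in NP-HF and 1.12, 0.763, 0.675, 0.487 and 0.664 in P-HF, a pair chosen after its values were seen. The ratio of COL1A1 to LUM ran from 3.18 to 8.34 in NP-HF and from 1.33 to 2.78 in P-HF. Neither ratio overlapped between groups, and neither was tested. Each set a collagen called lower over a gene that was not called, so their separation follows largely from the choice of genes. The ratios carry no correction for gene length, so that they compare libraries and not the levels of the 2 genes. The part of stromal cell number in the falls of matrix genes was not tested.

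Of 16 endothelial markers 4 fell, none rose and 12 were not called (median -0.21), and their summed level was 703.9 to 892.5 CPM in NP-HF and 489.1 to 859 CPM in P-HF, which overlap. TIE1, an endothelial receptor, had 25.97, 28.6, 26.6, 32.1 and 26.02 CPM in NP-HF and 19.6, 8.67, 13.03, 10.41 and 15.6 CPM in P-HF, and fell by 1.05 ± 0.19. PECAM1 (-0.77 ± 0.19) and FLT1 (-0.71 ± 0.23), a receptor of vascular growth factors, fell, and P-HF replicate 1 was within the NP-HF range for both. CDH5 (-0.17 ± 0.16) and KDR (0.25 ± 0.17), equally endothelial, were not called. FLT1 lost its call without NP-HF replicates 4 or 5 or P-HF replicates 2, 3, 4 or 5, and the count was 2 without NP-HF replicates 4 or 5 or P-HF replicates 3, 4 or 5. It was 6 at the highest with 1 library left out. Of 13 smooth muscle and pericyte markers 3 fell (median -0.43), among them RGS5 (-0.82 ± 0.17) and CSPG4 (-0.65 ± 0.15), and 6 did so without P-HF replicate 1. In the main fit 23.1% of these markers were called, against 20.8% of all genes.

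Among 25 angiogenic factors 8 fell and 2 rose. FIGF (VEGF-D), a growth factor of lymphatic vessels, fell, ANGPTL2 fell by 1.14 ± 0.25 and THBS2, an inhibitor of vessel growth, by 2.44 ± 0.56. ANGPT2, which loosens vessels for remodelling, had 7.998, 11.68, 9.47, 12.8 and 11.72 CPM in NP-HF and 15.7, 19.4, 26.6, 21.6 and 20.5 CPM in P-HF. It rose by 0.95 ± 0.16 with no overlap. The other riser was EPAS1 (HIF-2 alpha), at 0.98 ± 0.28, which lost its call without P-HF replicate 3. The count of lower members was 4 without NP-HF replicate 2 and 5 without P-HF replicate 4.

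Of 24 hormone and growth factor receptors 5 rose and 6 fell. OXTR, the oxytocin receptor, was at 39.2, 102.6, 54.6, 34.5 and 11.4 CPM in NP-HF and at 4.40, 8.04, 6.59, 3.31 and 10.1 CPM in P-HF. Every P-HF library was below every NP-HF library, though the lowest NP-HF (replicate 5) and the highest P-HF (replicate 5) were close, and the fall was 2.90 ± 0.50 (adjusted p = 0.00023 in edgeR).

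ESR1, the main oestrogen receptor, was at 7.79, 7.25, 10.1, 10.6 and 7.80 CPM in NP-HF and 5.30, 6.53, 6.71, 5.44 and 6.08 CPM in P-HF. The groups did not overlap, yet the change of -0.53 ± 0.19 passed narrowly (adjusted p = 0.047 in edgeR, 0.021 to 0.18 over the alternatives). It lost the call without any 1 library except NP-HF replicate 2. PGR, the progesterone receptor, was at 5.94, 8.20, 6.37, 8.76 and 4.95 CPM in NP-HF and 4.29, 5.40, 9.12, 8.10 and 11.69 CPM in P-HF and was not called (0.18 ± 0.26), its values overlapping throughout. GHR, the growth hormone receptor, fell by 1.51 ± 0.34 and THRB, a thyroid hormone receptor, by 0.91 ± 0.16, while ERBB2, a receptor tyrosine kinase of epithelia, rose by 0.52 ± 0.11.

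Of 26 prostaglandin and steroid genes 2 rose and 4 fell, 23.1% called against 20.8% of all genes. PTGS2, the inducible cyclooxygenase, was at -0.05 ± 0.24, AKR1B1, a prostaglandin F synthase, at -0.39 ± 0.19 and HPGD, which inactivates prostaglandins, at 0.23 ± 0.20, none of them called. PTGIS (-0.78 ± 0.17), the prostacyclin synthase, and PTGDS (-0.52 ± 0.12), a prostaglandin D synthase, fell, and CBR1 (0.82 ± 0.24), a carbonyl reductase, rose but lost its call without P-HF replicate 3. The lower count was 2 without NP-HF replicates 2, 3 or 4 or P-HF replicates 2, 3 or 4.

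Several growth factors and morphogens were lower. IGF1, insulin-like growth factor, was at 71.2, 132.1, 93.5, 138.3 and 156.2 CPM in NP-HF and 60.1, 57.6, 66.7, 21.0 and 41.2 CPM in P-HF, a change of -1.26 ± 0.26 with no overlap. H19, an imprinted non-coding RNA, was at 501.1, 446.3, 290.5, 416.9 and 238.8 CPM in NP-HF and 128.1, 98.5, 95.6, 54.5 and 179.3 CPM in P-HF, and fell by 1.77 ± 0.25. FGF1 (-1.48 ± 0.20) and IGFBP7 (-0.66 ± 0.13), an insulin-like growth factor binding protein, fell too. BTC (betacellulin), a ligand of the epidermal growth factor receptor, moved the other way and rose by 1.24 ± 0.19. Of 25 such ligands and binding proteins 5 fell and 3 rose, the higher count being 5 without NP-HF replicate 3 or 5.

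Of 32 WNT and hedgehog genes 7 fell and 1 rose (median -0.31), and 11 fell when library totals were used for scaling. GLI1, a transcription factor and target of hedgehog signalling, was at 41.8, 30.1, 35.6, 29.7 and 23.0 CPM in NP-HF and 9.87, 8.80, 10.38, 11.2 and 11.2 CPM in P-HF. The P-HF libraries lay close together and far below the others, and the fall was 1.63 ± 0.19. PTCH1, the hedgehog receptor and another of its targets, fell by 0.79 ± 0.15, WNT5A, a ligand of the stroma, by 0.72 ± 0.12 and SFRP2, a secreted WNT inhibitor, by 0.71 ± 0.19. DKK1, a WNT inhibitor secreted by the endometrium, was the 1 that rose, by 2.57 ± 0.64, with 1.44, 2.64, 8.81, 2.29 and 12.1 CPM in NP-HF and 3.22, 56.0, 30.0, 32.1 and 41.0 CPM in P-HF, where P-HF replicate 1 lay within the NP-HF range.

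Of 30 genes of the TGF-beta, activin and BMP families 7 fell and none rose, 23.3% called against 20.8% of all genes. MSTN (myostatin), a growth inhibitor that is also secreted by the uterus, was at 33.0, 81.2, 30.1, 18.1 and 12.2 CPM in NP-HF and 12.9, 7.92, 9.28, 8.14 and 11.8 CPM in P-HF, a change of -1.80 ± 0.38, with P-HF replicate 1 just above the lowest NP-HF library. BMP4 (-0.48 ± 0.15) and TGFB2 (-1.21 ± 0.36) fell too. BMP4 lost its call without NP-HF replicates 2 or 4 or P-HF replicates 1 or 2, and TGFB2 without NP-HF replicate 2 (-0.68) or P-HF replicates 3, 4 or 5. The count was 3 without NP-HF replicate 2 or P-HF replicate 4, and 4 without P-HF replicates 2, 3 or 5. Without NP-HF replicate 4 or P-HF replicates 1 or 4, 1 member was higher.

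RORB, an orphan nuclear receptor, was among the 8 largest losses in CPM of the genes that met the naming rule given below. Its level was 920.6, 1129, 831.6, 959.3 and 800.5 CPM in NP-HF and 407.7, 360.3, 333.9, 219.1 and 304.8 CPM in P-HF, a change of -1.51 ± 0.18 with no overlap. The largest gain in CPM under that rule was that of FRMD8, at 5292 to 7293 CPM in NP-HF and 8130 to 13404 CPM in P-HF (0.65 ± 0.14). The count of FRMD8 may hold reads of overlapping or antisense genes, which was not tested.

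Summed levels of 17 epithelial markers were 1603 to 2152 CPM in NP-HF and 2232 to 2538 CPM in P-HF, with no overlap under TMM scaling. Their mean log2(CPM + 1) did overlap, at 5.96 to 6.52 in NP-HF and 6.33 to 6.62 in P-HF. Most of these markers were not called: 3 rose, none fell, and the median was 0.15, or 0.04 by library totals. That is 17.6% called, against 20.8% of all genes. EPCAM, a general epithelial marker, was at 0.24 ± 0.10, KRT18 at -0.07 ± 0.14 and FOXA2, a transcription factor of uterine glands, at 0.35 ± 0.16. CLDN4, a claudin of tight junctions, was at 72.5, 43.1, 112.7, 121.4 and 154.3 CPM in NP-HF and 240.3, 288.1, 444.6, 203.7 and 271.3 CPM in P-HF. It rose by 1.52 ± 0.30 with no overlap, CLDN3 by 0.77 ± 0.17 and CDH1 (E-cadherin) by 0.75 ± 0.14. Without NP-HF replicate 3 the count of higher epithelial markers was 5. The part of a larger epithelial share of RNA in these and the following results was not tested.

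Of 26 epithelial junction genes 10 rose and 15 were not called, and 6 rose when library totals were used for scaling. OCLN (occludin) rose by 0.87 ± 0.13, PKP3, a desmosome protein, by 1.06 ± 0.20, PVRL2 (nectin-2) by 0.60 ± 0.09 and CGN (cingulin), which ties junctions to the cytoskeleton, by 0.58 ± 0.11. CLDN10 (-1.26 ± 0.40), a claudin named after its value was seen, was the 1 that fell, and the lower count was 0 without NP-HF replicate 2 or P-HF replicates 3, 4 or 5. Neither MUC1 (0.43 ± 0.32) nor MUC16 (0.19 ± 0.40), mucins of the uterine surface, was called. Of 11 mucins and galectins none rose, LGALS1 fell and MUC5B, a gel-forming mucin, fell by 2.07 ± 0.66, a change that rested on NP-HF replicate 3 (30.4 CPM, other NP-HF 2.54 to 6.62 CPM, P-HF 1.57 to 3.27 CPM). Without that library MUC5B was at -1.05 and not called, and it also lost the call without P-HF replicates 2, 3 or 5. The share of mucins and galectins called was 18.2%, against 20.8% of all genes. The count of lower members was 4 by library totals and 1 without NP-HF replicate 3 or P-HF replicates 2, 3, 4 or 5. Without NP-HF replicate 5 or P-HF replicates 1, 2 or 5, 1 member was higher.

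None of 23 tested motile cilia genes was called (lowest adjusted p = 0.24 in edgeR), and 0 were called under every alternative run. FOXJ1, the master regulator of ciliated cells, was at -0.05 ± 0.45. The scores of this list varied widely among NP-HF libraries, at 5.48, 4.97 and 5.27 in replicates 1 to 3 and 3.43 and 3.95 in replicates 4 and 5, and little among P-HF libraries (4.41 to 4.79).

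Genes that feed the uterine lumen were mixed. Of 29 secreted proteins 7 rose and none fell (median 0.55), 24.1% called against 20.8% of all genes. CRYGS, a crystallin known from the pregnant bovine endometrium, had 1.196, 1.32, 3.19, 5.57 and 3.64 CPM in NP-HF and 4.06, 38.2, 103.4, 21.3 and 32.5 CPM in P-HF. It rose by 3.75 ± 0.82, P-HF replicate 1 lying within the NP-HF range. The cathepsins CTSB (0.74 ± 0.17) and CTSZ (0.85 ± 0.24), lysosomal proteases that are also secreted, and CST6 (1.15 ± 0.33), a cathepsin inhibitor, rose. CST6 was at 0.85 and not called without P-HF replicate 3. SERPINA14, the uterine milk protein, was at 1.29 ± 0.73 and GRP (gastrin-releasing peptide) at -0.09 ± 0.28, neither called. Without NP-HF replicate 1 the list had 1 lower member.

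SLC2A1, the glucose transporter GLUT1, was at 91.4, 47.9, 130.1, 272.1 and 212.3 CPM in NP-HF and 245.2, 556.2, 767.4, 283.7 and 480.6 CPM in P-HF. It rose by 1.63 ± 0.39, P-HF replicate 1 lying below the highest NP-HF library, and SLC2A3 (GLUT3) fell by 0.74 ± 0.23, a call lost without NP-HF replicate 1 or P-HF replicates 3, 4 or 5. SLC7A1 (0.75 ± 0.18), which carries arginine and lysine, rose and SLC6A14 (-0.66 ± 0.17), a broad amino acid transporter, fell. Of 29 nutrient transporters 5 rose and 3 fell. The higher count was 3 without NP-HF replicates 2 or 3 or P-HF replicate 3. Of 24 ion and water channels and related enzymes 5 fell and 1 rose, among them CA8, a carbonic anhydrase-related protein, and 2 water channels named after their values were seen. AQP5 fell, with 14.5 CPM in NP-HF replicate 3 and 0.187 to 1.88 CPM in the other NP-HF libraries, and AQP8 rose by 5.00 ± 1.18 from at most 0.187 CPM. Without NP-HF replicate 3 the counts were 3 and 2.

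Of 39 fatty acid and lipid droplet genes 12 rose and 2 fell (median 0.16), and the lower count was 4 without P-HF replicate 1 and 6 by library totals. FABP3, a fatty acid carrier, was at 4.58, 4.52, 7.86, 49.3 and 26.8 CPM in NP-HF and 36.2, 181.8, 314.7, 305.2 and 121.9 CPM in P-HF. The change was 3.37 ± 0.70, with P-HF replicate 1 below NP-HF replicate 4. PLIN2, a coat protein of lipid droplets, rose by 0.90 ± 0.15, ACSL5, which activates fatty acids, by 0.62 ± 0.11 and ELOVL1, which elongates them, by 0.41 ± 0.09, while SCD5, a desaturase, fell by 0.79 ± 0.14.

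Of 26 cholesterol genes 12 rose and 1 fell (median 0.52). HMGCS1, an early enzyme of cholesterol synthesis, was at 156.9, 143.6, 219.2, 197.0 and 203.2 CPM in NP-HF and 264.7, 453.1, 483.4, 192.2 and 239.7 CPM in P-HF, a change of 0.83 ± 0.23. P-HF replicates 2 and 3 were highest and replicate 4 lay within the NP-HF range. INSIG1 (1.02 ± 0.24), a regulator of sterol synthesis, and NPC1 (0.57 ± 0.12), which exports cholesterol from lysosomes, rose. SCARB1 (-0.50 ± 0.16), a lipoprotein receptor named after its value was seen, was the 1 that fell. The higher count was 6 without NP-HF replicate 1, NP-HF replicate 2, P-HF replicate 2 or P-HF replicate 3, and SCARB1 lost its call without NP-HF replicates 2 or 4 or P-HF replicate 4.

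Of 23 retinol genes 7 fell and 2 rose. CRABP2, which carries retinoic acid to the nucleus, was at 21.8, 29.5, 13.53, 13 and 8.46 CPM in NP-HF and 5.41, 4.46, 6.08, 2.87 and 7.75 CPM in P-HF, a change of -1.69 ± 0.32 with no overlap. RARG, a retinoic acid receptor, fell by 0.78 ± 0.13. The lower count was 4 without NP-HF replicate 4 or P-HF replicate 2, 3 without P-HF replicate 4, and 11 by library totals. The higher count was 1 without NP-HF replicate 2 and 0 without P-HF replicate 3.

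FTL, a ferritin chain, was at 243.4, 215.4, 269.7, 286.9 and 235.8 CPM in NP-HF and 333.7, 385.7, 449.5, 463.8 and 531.6 CPM in P-HF, a rise of 0.79 ± 0.13 with no overlap. HMOX1 (0.98 ± 0.20), which breaks down heme, TXN (0.76 ± 0.14), thioredoxin, and FTH1 (0.57 ± 0.16), the other ferritin chain, rose, 6 of 25 antioxidant and heme genes in all with none lower. The share called in that list was 24.0%, against 20.8% of all genes. Without NP-HF replicate 4 or P-HF replicate 5, 1 of these genes was lower. Of 31 nuclear respiratory chain subunits 7 rose and none fell, 22.6% called against 20.8% of all genes. Positive values were found for 28, with a median of 0.23, or 0.12 by library totals. NDUFB8 rose by 0.50 ± 0.12 and CYC1 by 0.46 ± 0.12. The count was 2 without P-HF replicate 3, and 4 without NP-HF replicates 1, 2, 3 or 5 or P-HF replicate 5. It was 3 by library totals and 13 without P-HF replicate 1 and NP-HF replicate 4 together.

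Among 20 glycolysis genes 4 rose and 5 fell. LDHA, the lactate dehydrogenase subunit of anaerobic tissue, was at 49.2, 41.3, 63.2, 34.5 and 31.5 CPM in NP-HF and 27.6, 23.6, 22.5, 21.6 and 25.5 CPM in P-HF, a change of -0.86 ± 0.23. PFKP (0.78 ± 0.15) rose and PFKM (-0.67 ± 0.12) fell, both being subunits of phosphofructokinase. PGK1 (0.66 ± 0.14), a later enzyme, rose and LDHB (-0.34 ± 0.08) fell. The count of lower members was 3 without NP-HF replicates 1, 2 or 4 or P-HF replicates 2, 4 or 5.

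In the cell cycle list 2 of 30 genes rose and 3 fell, against shares of 10.2% and 10.6% over all genes. CDKN1A (p21), which halts the cycle, rose by 0.92 ± 0.19 and CCND3, a D-type cyclin, by 0.94 ± 0.14, and TYMS, which makes thymidylate, fell by 0.58 ± 0.13. The lower count was 1 without P-HF replicates 1 or 5. Ribosomal proteins were lower in 6 of 26 cases, with a median of -0.09, such as RPL4 (-0.62 ± 0.11). The share called was 23.1%, against 20.8% of all genes. RPS3A (-0.55 ± 0.10) was among the 8 largest losses in CPM of the genes that met the naming rule. Without NP-HF replicate 3 or P-HF replicate 4 1 ribosomal protein was higher, without P-HF replicate 1 2 were, and the lower count was 4 to 6 with 1 library left out. Of 22 endoplasmic reticulum and unfolded protein response genes 6 rose and 1 fell, led by MANF (0.61 ± 0.13), a secreted stress-response factor, and ATF4 (0.32 ± 0.07). EIF2AK3, the kinase PERK, was the 1 that fell (-0.29 ± 0.08), and it was not called without NP-HF replicate 2. By library totals 4 members of this list were lower.

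The largest falls by fold included genes at low levels. PI3 (elafin), an elastase inhibitor of mucosal surfaces, was at 3.75, 2.36, 40.9, 1.24 and 1.78 CPM in NP-HF and 0.338, 0.251, 0.237, 0.435 and 0.468 CPM in P-HF. All P-HF libraries were below all NP-HF libraries, but the change of -4.82 ± 0.99 rested in part on NP-HF replicate 3, and without it was -2.69. The sialyltransferases ST6GAL2 (-2.57 ± 0.43) and ST8SIA2 (-2.14 ± 0.31), CHODL (-2.61 ± 0.45), a membrane lectin, KCND3 (-2.34 ± 0.44), a potassium channel, and ENOX1 (-2.09 ± 0.29) did not overlap between groups. GALNT5 (-2.71 ± 0.65), a glycosyltransferase, rested on NP-HF replicate 3, and without it was at -1.10 and not called.

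The same contrast in SF heifers shares no library with the one above. There, 798 genes were called (4.07%). Of 44 antiviral effectors 41 rose in P-SF over NP-SF (median 3.21), and ISG15 was at 5.46 ± 0.70. The collagen list had 1 of 15 members lower (median -0.39), COL3A1 was at -0.67 ± 0.24 and not called, and OXTR was at -0.76 ± 0.48 and not called. GLI1 (-0.74 ± 0.19), FAP (-0.58 ± 0.14) and H19 (-1.08 ± 0.25) were called lower in SF heifers as well.

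These differences between classes did not pass the test made for them, with 1 exception. The interaction, the pregnancy change in HF minus that in SF heifers, called 1 gene of 19606 (0.0051%) in edgeR, with 1336 at an unadjusted p under 0.05 (6.81%), while DESeq2 called 3 and limma-voom 0. That gene was CILP, a cartilage matrix protein, with an interaction of -1.38 ± 0.22 (adjusted p = 0.041). In HF heifers CILP was at 11.01, 10.0, 6.74, 6.998 and 7.05 CPM in NP-HF and 2.93, 3.14, 3.16, 3.53 and 4.36 CPM in P-HF, a change of -1.28 ± 0.16, and in SF heifers its change was 0.10 ± 0.16. The call was lost without any 1 library of the HF and SF groups except NP-HF replicates 3, 4 and 5, P-HF replicate 5 and P-SF replicate 5. The interactions of COL3A1 (-1.21 ± 0.33, adjusted p = 0.51), COL1A1 (-1.30 ± 0.34, adjusted p = 0.46), OXTR (-2.14 ± 0.68, adjusted p = 0.61) and ISG15 (2.07 ± 0.86, adjusted p = 0.66) were not called.

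**Figure D5:**
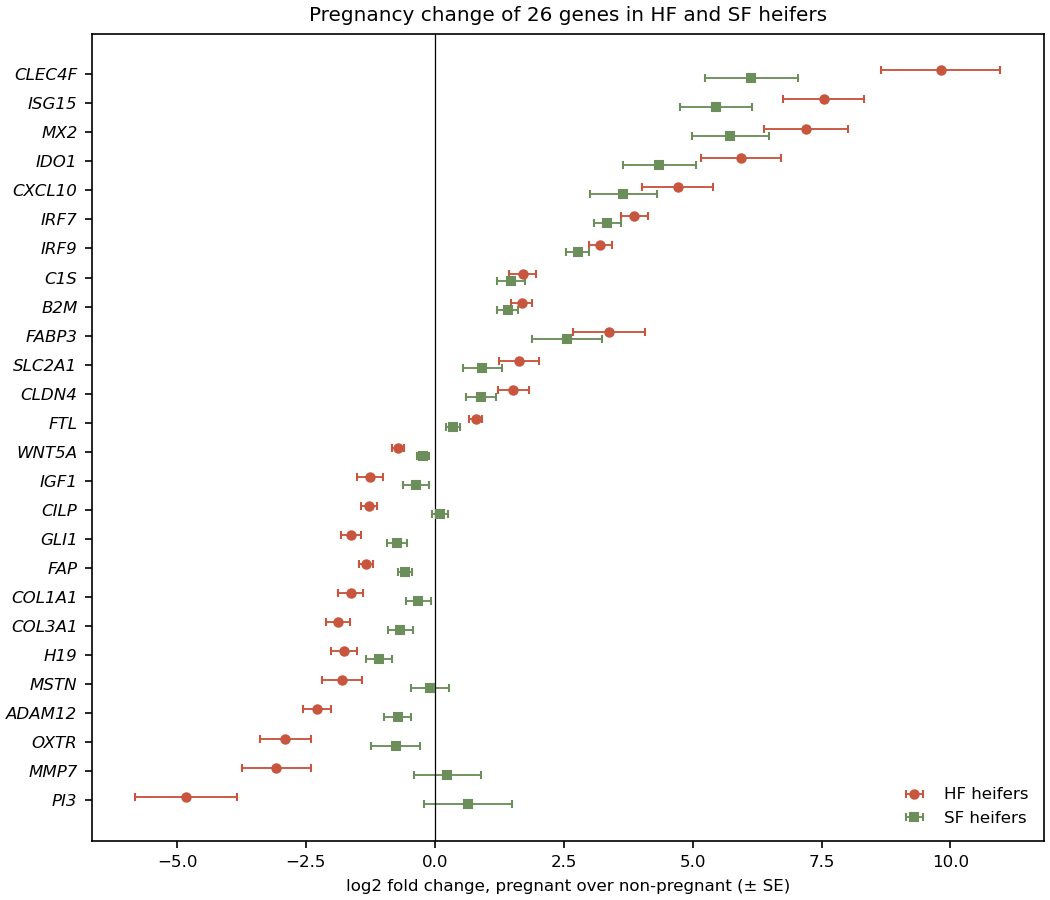
Log2 fold change of pregnant over non-pregnant endometrium with its standard error for 26 genes in HF (red circles) and SF heifers (green squares). CILP (-1.28 in HF, 0.10 in SF) is the 1 gene whose difference between classes was called, and ISG15 (7.54 and 5.46) and IRF7 (3.87 and 3.34) are raised in both.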

How the data were processed

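Read counts per gene were deposited by the authors in 1 table of 52 libraries, of which the 25 endometrium libraries were used and 27 columns (conceptuses) were not used. HISAT2, StringTie, edgeR and the genome build UMD3.1 are named in the submitters' processing notes, which state neither versions nor the use of strand in counting. Reads of overlapping, antisense and closely related genes may therefore be shared. Lines without a gene name (1020) were empty and were left out.

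Counts of the 5 endometrium groups were fitted together in edgeR 4.0.16 (R 4.3.3) with its filter on low counts (minimum count 10, minimum total 15), TMM scaling and the quasi-likelihood test, and p-values were adjusted by Benjamini-Hochberg over 19606 genes. Standard errors were derived from the fold change and the F statistic. The fit was tested on simulated data. Groups came from the labels, and replicates were numbered in accession order, so the numbers pair no samples. Total counts were 17077635 to 27292222, and their number limits the precision of genes at low levels.

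The genes named were called genes with a symbol whose group mean reached 5 CPM on the higher side and whose libraries were ordered alike in 20 or more of 25 pairs: the 15 largest fold changes and 8 largest CPM differences in each direction, and up to 5 members of each of 46 lists by smallest p, besides 9 genes always given. Others are said to be named after their values were seen, and uncalled members appear by value only. The members and lists were chosen with earlier results of these data known. Alternatives were other scalings, limma-voom (limma 3.58.1), DESeq2 1.42.0, other filters, the 10 HF libraries alone and each library left out. Promoter sequences were not analysed here. A few genes of the lists are not reported here by name.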

Additional observations from a re-analysis of the deposited data

Results flagged for a closer look

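Within groups of 5 libraries, 210 sets of values (92 list scores and 118 gene levels) were examined on the scale of log2(CPM + 1). In 15 of them 1 library was set apart from the others by more than 0.71 of the group's range. Chance gives about 1 in 20 for independent, normally distributed sets. These sets share genes, and many of the genes were chosen by their values, so that rate is only a rough guide. Gene levels are printed below in CPM, where the gaps take other shares of the range. P-HF replicate 1 was apart in 5 of them: KIF5C (46.81 CPM, others 131.2 to 168.9), USP18 (67.57 CPM, others 129.7 to 159.1), C2 (15.06 CPM, others 46.22 to 60.28) and DKK1 (3.215 CPM, others 30 to 55.98) were low, and CRTAP (21.09 CPM, others 10.01 to 12.47) was high. P-HF replicate 4 was low in the scores, means of log2(CPM + 1), of TGF-beta, activin and BMP genes (3.94, others 4.19 to 4.26) and of proteoglycan, microfibril and matricellular genes (4.35, others 4.76 to 4.91).

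NP-HF replicate 4 was high in RNA and DNA sensors (4.37, others 4.01 to 4.08), in T and NK cell markers (2.88, others 2.19 to 2.33) and in CLEC4F (0.1904 CPM, others 0). NP-HF replicate 2 was high in collagen-modifying enzymes (5.75, others 5.15 to 5.30) and in MMP7 (65.33 CPM, others 3.971 to 8.665). NP-HF replicate 3 was high in retinol genes (4.66, others 4.49 to 4.52) and in PI3 (40.91 CPM, others 1.238 to 3.752). NP-HF replicate 1 was low in mast cell and granulocyte markers (2.03, others 2.35 to 2.47). The pregnancy change of CILP differed between HF and SF heifers by -1.38 on the log2 scale in the edgeR test of that difference.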

How the results depend on the processing

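The total of 4081 calls was 3119 to 4400 with 1 library left out, 4105 with DESeq2's size factors in edgeR, 3970 with limma-voom, 4663 with DESeq2, 3535 with no filter and 2999 from the 10 HF libraries alone. Several list counts were smaller from these 10 libraries alone. Higher cholesterol genes went from 12 to 6, lower stromal markers from 6 to 3 and lower TGF-beta family genes from 7 to 3. Lower endothelial markers went from 4 to 2 and lower checkpoint genes from 2 to 0. Over all alternatives the antiviral count stayed at 41 or 42 and the fibrillar and type VI collagen count at 12 or 13. Under library totals the calls were 1328 higher and 3299 lower (28.7% higher, against 48.9%). Of the 4081 calls, 3411 were also made under library totals, 4070 by DESeq2 and 2888 from the 10 HF libraries alone, with 0 in the other direction. Of 219 called genes examined singly, 179 kept their call under every alternative run, 40 lost it under at least 1 and 0 reversed. Most of these genes were chosen for large changes or small p in the main fit of the same libraries. Their share is therefore no measure of how stable the calls are in general. The single call for a difference between HF and SF heifers became 0 with limma-voom, 0 with no filter, 3 with DESeq2, 0 to 1 with 1 library left out and 0 without P-HF replicate 1 and NP-HF replicate 4, an alternative chosen after seeing the data. No paired analysis was possible because the 10 HF libraries came from 10 different heifers. The promoter comparison was not run. Depth limits genes with few reads, such as AQP8 and the trophoblast markers.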

Other observations

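P-HF replicate 1 was the lowest P-HF library for 439 (73.2%) of the 600 genes that rose at least 2-fold, and for 24.7% of all genes tested. Of the 680 genes that fell at least 2-fold it was the highest P-HF library for 252 (37.1%), and P-HF replicate 4 was the lowest for 311 (45.7%). NP-HF replicate 2 was the highest NP-HF library for 288 (42.4%) of those that fell. By the animal number in the titles, conceptus libraries matched to P-HF replicates 1 to 5 numbered 1, 0, 1, 2 and 2. Endometrium titles carry a longer number, of which only the last digits were matched. Titles and descriptions of many conceptus libraries name different numbers, so that this link between uterus and conceptus is uncertain.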
